A study of Mus musculus with 6 samples.

Results

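The Ifi200 family is a set of interferon-inducible genes that lie side by side on mouse chromosome 1 and encode PYHIN proteins, which join a pyrin domain to a DNA-binding HIN domain. The best known member, Aim2, binds double-stranded DNA in the cytosol and assembles an inflammasome, a complex that activates caspase-1. Other members are mostly nuclear proteins that act in DNA sensing and in the control of transcription and growth, and mouse strains are known to differ in which of them they carry and express. The members examined were the 10 listed names Ifi203, Ifi204, Ifi205, Ifi207, Ifi209, Ifi211, Ifi202b, Mndal, Mnda and Aim2. RefSeq transcript names were mapped to gene symbols to find them. Mnda matched only as an older name of Ifi211, so the 10 names stood for 9 genes of 35297 in all, of which 18894 had at least 1 read.

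Expression was measured by RNA sequencing of BMMCs (bone marrow-derived mast cells) on day 20 of culture, in 3 libraries of BALB/c mice (S9, S10 and S11) and 3 of C57BL/6 mice (S12, S13 and S14). Both strains were naive wild-type mice without a transgene, and both sets of cultures received the cytokines SCF, IL-3, IL-9 and TGF-β1, so the strain was the only factor that differed by label. The comparison answers which members the cells of each strain express at rest. Between 28273365 and 35873036 reads per BALB/c library and between 28801452 and 37100869 per C57BL/6 library were assigned to genes. All 14 mast cell markers, Kit, Fcer1a and Cpa3 among them, were detected in both strains. Of these, Tpsb2 and Hdc were called higher in C57BL/6 and Mcpt4 in BALB/c, and 11 were called in neither. Of 10 macrophage or monocyte markers, the 3 that were tested, Adgre1, Cd68 and Ccr2, were higher in C57BL/6, with a summed level of 6.62 to 10.2 CPM (reads scaled to a common library size) in BALB/c against 28.0 to 33.1 in C57BL/6, and Csf1r, C1qa, C1qb and C1qc had 0 reads in all 6 libraries. The dendritic cell marker Itgax was also higher in C57BL/6, and that list summed to 41.5 to 46.9 CPM against 82.5 to 83.8. Nearly all of this sum came from Itgax and from Bst2, which is also on the list of interferon-stimulated genes below. Flt3, Zbtb46 and Xcr1 had at most 5 reads per library, Zbtb46 in BALB/c alone, and Siglech and Cd209a had 0. Of 8 basophil markers, all tested, 4 were called higher in C57BL/6 (Mcpt8, Prss34, Cebpa and Ccl9) and 0 in BALB/c. By less than 2-fold, Ms4a3 was higher in C57BL/6 and Il18r1 in BALB/c (adjusted p = 0.0024 and 0.00415, edgeR's quasi-likelihood test). Cd200r3, which had the highest level of the list (310 CPM in BALB/c against 296), and Itga2 did not pass (adjusted p = 0.154 and 0.589, same test). The list summed to 405 to 418 CPM against 512 to 523. Of 6 erythroid markers the 1 tested, Hbb-bt, was higher in C57BL/6, while Hba-a1 and Alas2 had fewer reads in C57BL/6 than in BALB/c, and that list summed to 0.266 to 0.534 CPM against 6.04 to 6.18. The part of these cells in the results on the members was not tested.

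In GRCm39, whose sequence is that of a C57BL/6J mouse, the 9 genes span 681 kb, from Aim2 at chr1:173178445-173293930 on the forward strand to Ifi205 at chr1:173839549-173859456 on the reverse strand. Ifi209 is also on the forward strand, and the other 7 members are on the reverse strand. Ifi204 lies at chr1:173574859-173594610, Mndal at chr1:173676539-173708447 and Ifi203 at chr1:173747971-173770436. The first part of Aim2 as annotated by GENCODE overlaps Cadm3, an adhesion molecule gene on the opposite strand that ends at 173195452, while the RefSeq start used for the promoter window below lies past that end.

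Interferon acts through the interferon-stimulated response element (ISRE), whose core was searched as GAAA, any pair of bases, GAAA on both strands. Windows from 250 bases before to 50 bases after the RefSeq start (GRCm38.p6 table, with each window matched exactly to GRCm39) were given for 8 of the 9 members, 10 windows in all. Ifi204 had no window and was not searched. The core was in 6 of these 10 windows, in 5 members, against 3.44% of 32851 windows of all genes. The sequences are shown because 5 members share this core and because Ifi203 and Mndal, which differed in level, carry the same 30 bases. Each is 30 bases of GRCm39, read 5′ to 3′ on the gene's strand, with the ISRE core in capitals.
Ifi203, chr1:173770074-173770103, reverse strand: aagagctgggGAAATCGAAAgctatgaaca
Mndal, chr1:173707770-173707799, reverse strand: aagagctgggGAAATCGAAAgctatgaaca
Ifi207, chr1:173569397-173569426, reverse strand: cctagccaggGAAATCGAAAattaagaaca
Ifi211, chr1:173740630-173740659, reverse strand: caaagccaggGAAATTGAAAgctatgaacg
Ifi205, chr1:173859436-173859465, reverse strand: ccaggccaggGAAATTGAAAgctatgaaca

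The core began at position -35 of the Ifi203 window, -36 of Mndal, -41 of Ifi207, -37 of Ifi211 and -134 of Ifi205, counted from the RefSeq start. Ifi203 and Mndal each had another window, at a different RefSeq start, without this site, and that of Ifi203 held no core. Over 90 bases aligned at the core, Ifi203 and Mndal were identical at 90 of 90 positions. Ifi205, Ifi207 and Ifi211 formed another group, with identities of 84.4% to 86.7% among themselves and at most 56.7% with Ifi203 and Mndal. Mndal and Ifi205 each held a further core on the opposite strand. The interferon-γ activated site TTCNNNGAA was found in the window of Ifi202b alone, against 8.30% of all windows, and GAGGAAGT, a core bound by the myeloid factor PU.1, in that of Aim2 alone, against 3.20%. The Aim2 stretch, with this core in capitals, lies at chr1:173248046-173248075 on the forward strand. It is shown as the only exact match to GAGGAAGT in the members' windows. AGGAAGT, without the first G, was also in the windows of Ifi207 and Ifi211, and in that of Ifi209 on the opposite strand.
Aim2: aaaccttattgGAGGAAGTgggtcactgag
These matches describe the reference sequence, and the BALB/c sequence of these windows was not analysed here.

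The strains differed in which members of the cluster were read. Ifi203 and Ifi204 were read in every BALB/c library and were at or next to 0 reads in every C57BL/6 library. Aim2 had the highest TPM of the members in both strains and was higher in C57BL/6, by less than 2-fold, while the strains overlapped in Mndal. Of the 9 members, 7 had at least 1 read, 4 passed the filter on low counts, 2 were called higher in BALB/c and 0 in C57BL/6. Calling a gene took a difference of more than 2-fold and an adjusted p under 0.05 by edgeR's quasi-likelihood test, with p-values adjusted over the 12461 genes tested (Benjamini-Hochberg). By this rule 5.54% of all genes tested were called higher in BALB/c and 7.73% higher in C57BL/6. By the adjusted p alone 52.9% of genes passed, and in 61.9% the CPM values of the strains did not overlap, so neither a small adjusted p nor separate groups sets a gene apart in these data. Members that passed the filter through BALB/c alone had to differ, and the count of 2 carries no weight beyond their own values.

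Ifi203, which encodes an interferon-inducible nuclear protein, had estimated reads of 917 in S9, 813 in S10 and 864 in S11, all BALB/c, and 1 read in each of the C57BL/6 libraries. In TPM, which counts reads per length of transcript, these were 9.85, 9.20 and 7.84 in BALB/c against 0.00761, 0.00856 and 0.0107 in C57BL/6. The BALB/c libraries were close to each other and the strains did not overlap. Mean levels were 26.3 ± 3.02 CPM and 0.0322 ± 0.00442 CPM (SD, n = 3 each). On the log2 scale, C57BL/6 differed from BALB/c by -9.53 (SE 0.22, adjusted p = 3.57e-09, edgeR's quasi-likelihood test), a fitted value that depends on how the few reads of C57BL/6 are treated. Ifi203 passed the filter on low counts through BALB/c alone, so this p carries no weight beyond its reads. Pooled over libraries, 2594 reads against 3 gave a ratio of 823 with a 95% interval of 281 to 3990, which covers counting error only.

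Ifi204, whose protein p204 is a nuclear and cytoplasmic DNA-binding factor of differentiating myeloid cells, had 56.0 reads in S9, 40.03 in S10 and 52.5 in S11 and 0 in each C57BL/6 library. Its level in BALB/c was 1.503 ± 0.224 CPM and 1.0 ± 0.164 TPM (SD, n = 3), the lowest of the members tested. Against a floor of 3 reads per library, BALB/c was at least 15.6-fold higher. The test gave an adjusted p of 2.66e-05 (edgeR's quasi-likelihood test), and every BALB/c library was above every C57BL/6 library. Ifi204 passed the filter on low counts through BALB/c alone, so this p and this separation carry no weight beyond its reads. Only 1 of the 2 listed transcripts, of 2302 bases, held the reads of Ifi204.

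Aim2, the inflammasome sensor, had 850, 684 and 948 reads in BALB/c and 1393, 1138 and 1443 reads in C57BL/6. Corrected for library size, these were 26.7, 22.9 and 25.2 CPM against 43.6, 42.0 and 40.8 CPM. The lowest C57BL/6 library was above the highest BALB/c library, and the libraries within a strain lay close together. The means were 24.9 ± 1.89 and 42.1 ± 1.42 CPM, and 14.7 ± 1.13 and 21.7 ± 0.425 TPM (SD, n = 3 each). The log2 fold change was 0.75 (SE 0.06, adjusted p = 9.83e-06, edgeR's quasi-likelihood test), below the 2-fold limit. In a bulk culture, more cells with the gene and more RNA per cell cannot be told apart. The macrophage, dendritic cell and basophil markers called above, and Hbb-bt, were higher in the same strain as Aim2.

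Mndal, a nuclear member related to the human myeloid nuclear differentiation antigen, had 193, 102 and 202 reads in BALB/c and 129, 105 and 123 reads in C57BL/6. Its TPM values were 5.04, 2.80 and 4.33 against 2.98, 2.74 and 2.52. S10 fell among the C57BL/6 libraries, so the strains overlapped, and the spread within BALB/c was several times that within C57BL/6. Mean levels were 4.95 ± 1.37 CPM in BALB/c against 3.796 ± 0.290 CPM (SD, n = 3 each). The difference of -0.39 on the log2 scale (SE 0.20) did not pass the test (adjusted p = 0.129, edgeR's quasi-likelihood test). Without S10 it was -0.59 (adjusted p = 0.00696) and without S9 -0.23 (adjusted p = 0.378) in the same test. Pooled over libraries, Ifi203 and Mndal, which share the 90 bases around the ISRE core, had 2594 and 497 reads in BALB/c and 3 and 357 in C57BL/6.

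**Figure D1:**
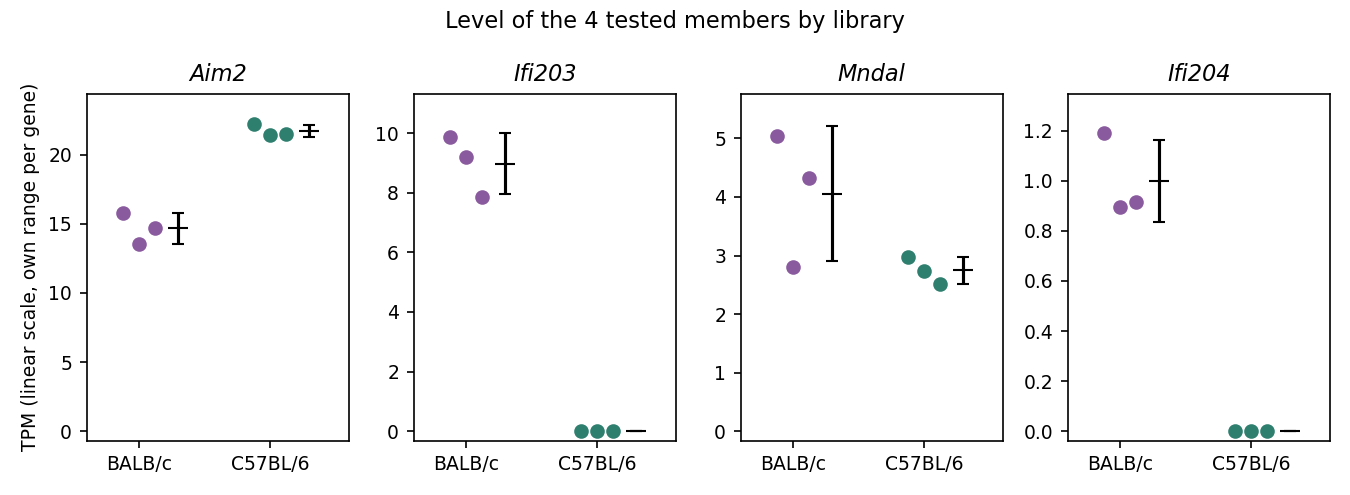
TPM of Aim2, Ifi203, Mndal and Ifi204 (vertical axes, linear, each with its own range) in the BALB/c and C57BL/6 libraries. Each point is 1 library, the bar beside the points is the mean and SD (n = 3), and Ifi203 and Ifi204 sit at or near 0 in C57BL/6, Aim2 is higher there, and Mndal overlaps.

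The other members were at or next to 0. Ifi207 had 1, 2 and 3.01 reads in BALB/c and 0 in C57BL/6, and Ifi211, listed also as Mnda, had 0, 3.64 and 1.57 reads in BALB/c and 0 in C57BL/6. Ifi209 had 1 read, in S13. Ifi205 and Ifi202b, the latter known as a suppressor of AIM2 signalling, had 0 reads in all 6 libraries. A count of 0 allows up to 3 reads, which is a level of up to 0.0798 to 0.101 CPM in a BALB/c library and 0.0847 to 0.111 CPM in a C57BL/6 library. Fitted without a filter on low counts, none of these 3 genes with reads passed the test, with adjusted p values of 0.0848 for Ifi207, 0.121 for Ifi211 and 0.5 for Ifi209 in edgeR's quasi-likelihood test. Of the 5 other PYHIN genes of the cluster, Ifi208 had 0, 4 and 7 reads in BALB/c and 4, 2 and 2 in C57BL/6. Ifi213 had 1 read in each BALB/c library and 4, 2 and 1 in C57BL/6, and Ifi206 and Ifi214 had 0. For the pseudogene Ifi203-ps no transcript was matched.

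In order of TPM, BALB/c BMMCs expressed Aim2 (14.7), Ifi203 (8.96), Mndal (4.06) and Ifi204 (1.0), and at each step the lowest library of the higher gene was above the highest library of the next. In C57BL/6 the order was Aim2 (21.7), then Mndal (2.75), with Ifi203 and Ifi209 below that at single reads. Summed over the 9 members, the level was 31.9, 26.6 and 27.8 TPM in BALB/c and 25.2, 24.2 and 24.0 TPM in C57BL/6. The sums did not overlap. Aim2 gave 51.1 ± 1.63% of this sum in BALB/c and 88.7 ± 0.673% in C57BL/6 (SD, n = 3 each). Ifi203 gave 31.2 ± 3.25% in BALB/c and 0.0367 ± 0.00577% in C57BL/6, and Mndal 13.97 ± 2.97% and 11.2 ± 0.673%. An exact two-sided permutation test over libraries gave p = 0.1 for the shares of Aim2 and Ifi203, the smallest that 3 against 3 libraries allow. As a single feature, the summed reads were lower in C57BL/6 (log2 fold change -0.33, SE 0.06, adjusted p = 0.00165, edgeR's quasi-likelihood test). With an offset for transcript length the difference was -0.06 (adjusted p = 0.465). Without Ifi203, a sum chosen after seeing the data, the direction turned, to 0.54 (adjusted p = 0.000257, same test).

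**Figure D2:**
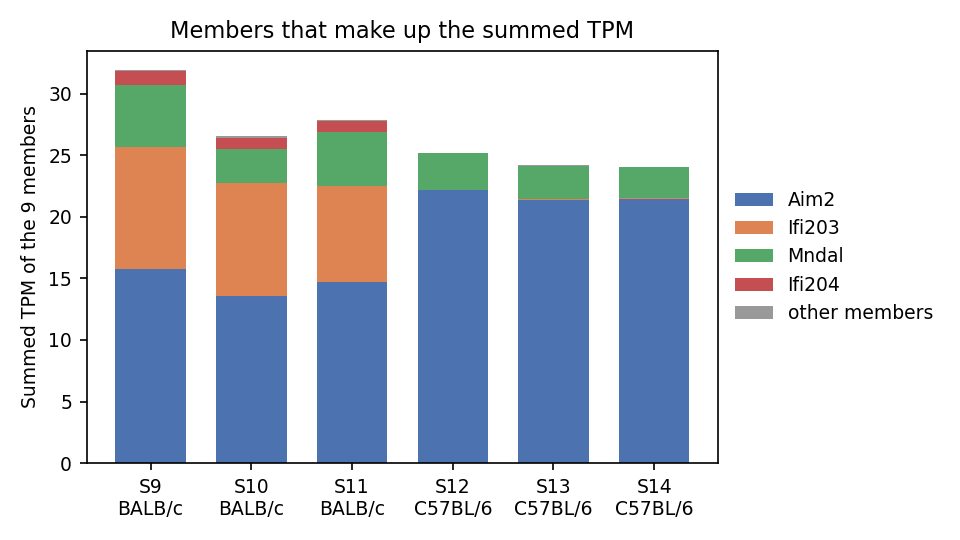
Summed TPM of the 9 members (vertical axis) in each of the 6 libraries, with the bars divided by gene. The sums run from 24.0 to 31.9 TPM, Ifi203 takes about 31.2% of the bar in BALB/c on average, and Aim2 fills 88.7% of it in C57BL/6.

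The 5 genes outside the family whose log2 CPM over the 6 libraries followed the summed reads most closely were Ccdc50 (Pearson r = 0.9987), Snapc1 (0.9955), Lin54 (0.9940), Samd8 (0.9940) and Akap1 (0.9932). The points are 6 libraries of 2 strains that share these 2 groups, and 210 of 12457 genes compared had an r above 0.95, so the values describe these libraries only.

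The reads of Ifi203 in BALB/c fell on 6 transcripts. The transcript of 4883 bases (NM_001302649.1) held 46.9% of the pooled BALB/c reads, that of 3497 bases (NM_001302651.1) 29.0% and that of 4898 bases (XM_006496669.4, a predicted model) 18.2%. The order of these 3 was the same in S9, S10 and S11, and none of them rested on a single library. Aim2 was read mostly from 1 transcript of 2541 bases (NM_001013779.2), which held 91.2% of its BALB/c and 88.0% of its C57BL/6 reads. This transcript alone gave 732, 635 and 896 reads in BALB/c against 1139, 1037 and 1321 in C57BL/6, the same order as the gene. Mndal, with 1 transcript of 1930 bases holding all its reads, had no such division. How Salmon divides reads between transcripts of 1 gene is an estimate, and the minor transcripts of Aim2 varied between libraries of a strain.

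**Figure D3:**
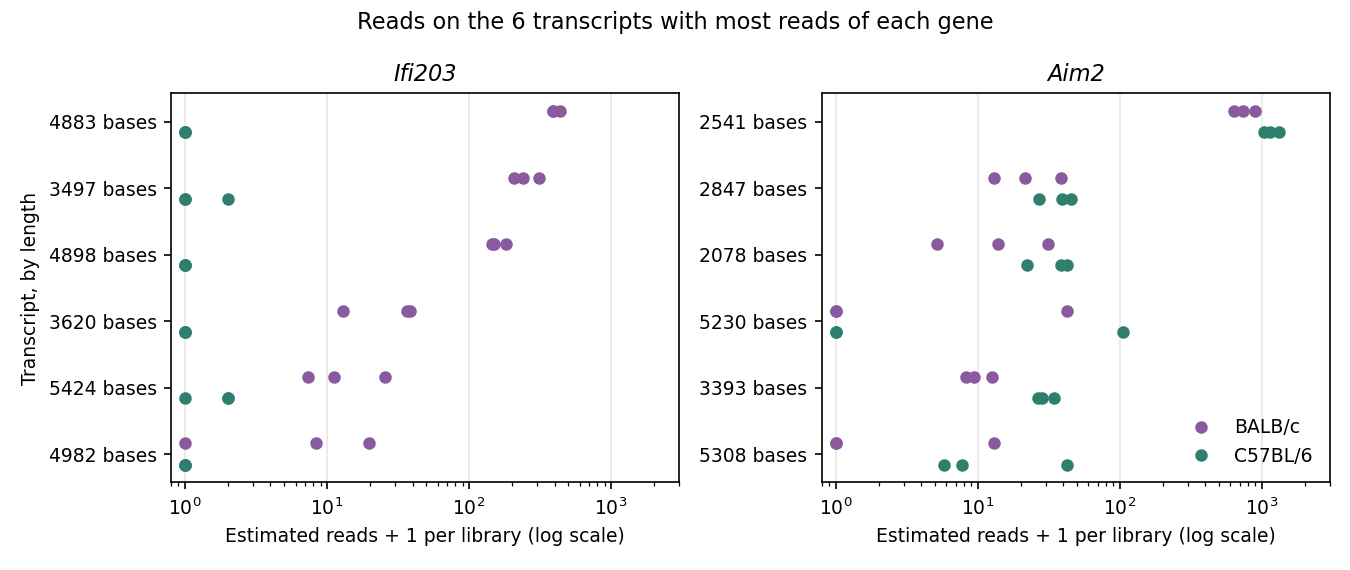
Estimated reads per library plus 1 (horizontal axes, log scale) on the 6 transcripts with the most reads of Ifi203 and of Aim2, named by their length in bases. Each point is 1 library, and the 3 leading Ifi203 transcripts lie apart between the strains, while the 2541-base transcript carries Aim2 in both.

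Members share sequence, and reads of near-identical stretches can be divided between genes. Of the words of 31 bases in the GENCODE transcripts of Ifi203, 20.1% also occurred in another PYHIN gene of the cluster, most of them in the pseudogene Ifi203-ps (13.9%). The share was 29.3% for Ifi204, mostly with Ifi211 (19.1%), 25.2% for Mndal, with Ifi203 (10.99%) and Ifi211 (10.32%) ahead of Ifi205 (9.02%) and Ifi204 (6.84%), and 0% for Aim2. Ifi211 was the least distinct member, with 75.2% of its words found elsewhere, so its few reads are uncertain. Summing Ifi204 with Ifi205 and Ifi211 gave -8.65 (SE 0.60, adjusted p = 2.1e-05, edgeR's quasi-likelihood test), and this sum also passed the filter through BALB/c alone. Summing Ifi203 with Mndal, a sum chosen after seeing the data, gave -3.03 (SE 0.10, adjusted p = 4.24e-08, same test), a value set mostly by the reads of Ifi203. The division of reads with Ifi203-ps, which has no matched transcript, was not tested. Whether sequence differences between the strains changed the assignment of reads was not tested.

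Of the genes of the AIM2 inflammasome list, Il1b and Pycard were higher in C57BL/6, Gsdmd was lower, and Casp1 did not pass the test. Of its 10 genes, 8 were tested, 1 was called higher in C57BL/6 and 1 in BALB/c, with a median log2 fold change of 0.20 against -0.01 over all genes tested. By less than 2-fold, Casp4 (0.32) and Ninj1 (0.54) were higher in C57BL/6 and Gsdmd (-0.40) lower (adjusted p = 0.00189, 7.55e-06 and 0.024, edgeR's quasi-likelihood test). Casp8 did not pass (adjusted p = 0.336, same test). Il1b, the cytokine that caspase-1 matures, had 1.95, 3.52 and 1.81 CPM in BALB/c against 28.1, 24.2 and 21.5 CPM in the other strain. It was thus higher in every C57BL/6 library (log2 fold change 3.36, SE 0.21, adjusted p = 1.83e-06, edgeR's quasi-likelihood test). Pycard, which encodes the adaptor ASC that AIM2 recruits, was higher in C57BL/6 by less than 2-fold, as was Aim2 itself (0.95, SE 0.08, adjusted p = 1.35e-05, same test). Its mean was 18.2 ± 0.533 CPM in BALB/c against 35.2 ± 3.94 CPM (SD, n = 3 each). Casp1, the caspase of the complex, did not pass (-0.12, SE 0.08, adjusted p = 0.221, same test), but passed with plain library sizes (-0.26, adjusted p = 0.0151) and by limma on log2 TPM (-0.28 and -0.29, adjusted p = 0.0183 and 0.0299). Nlrp3, the sensor of a different inflammasome, was higher in BALB/c, with 34.4, 42.5 and 36.4 CPM against 26.8, 9.75 and 10.3 CPM. S12 stood between the strains, and the log2 fold change of -1.27 (SE 0.32, adjusted p = 0.00918, same test) was -1.91 without S12. With transcripts of the same version alone it was -0.82 (adjusted p = 0.178) and with curated ones -0.82 (adjusted p = 0.2), so the call was lost in both of these fits.

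The list for cytosolic DNA sensing holds genes of the route through cGAS and STING to interferon and other sensors of nucleic acids. Of 15 listed, 14 were tested, 1 was called higher in C57BL/6 and 0 in BALB/c, with a median of -0.03. The shares over all genes tested were 7.73% and 5.54%. Cgas, the sensor that makes the second messenger cGAMP, was lower in C57BL/6 by less than 2-fold (-0.62, SE 0.08, adjusted p = 0.000225, edgeR's quasi-likelihood test), at 15.4 ± 0.486 CPM against 10.04 ± 0.820 CPM (SD, n = 3 each). Sting1, its receptor, and Tbk1, the kinase that acts next, were also lower (-0.41 and -0.22, adjusted p = 0.000191 and 0.00487, same test). Irf3, the factor phosphorylated by Tbk1, did not pass (0.02, adjusted p = 0.734), and its sign turned to -0.12 with plain library sizes and to -0.13 and -0.14 by limma on log2 TPM, where it passed (adjusted p = 0.0363 and 0.0478). Zbp1, an interferon-inducible sensor of Z-form nucleic acids, was the gene called, on few reads, with 2, 1 and 1 in BALB/c against 33, 21 and 32 in C57BL/6 (4.36, SE 0.41, adjusted p = 2.43e-05, same test). It passed the filter on low counts through C57BL/6 alone, so this p carries no weight beyond its reads.

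Of 13 genes of interferon reception and signalling, all were tested, 2 were called higher in C57BL/6 and 0 in BALB/c, with a median of 0.14. Irf8, a myeloid transcription factor of the interferon regulatory family, had 12, 2 and 3 reads in BALB/c and 164, 137 and 232 in C57BL/6 (4.99, SE 0.38, adjusted p = 6.57e-06, edgeR's quasi-likelihood test), and S9 stood above the other BALB/c libraries, so that the difference was 6.16 without it. Irf8, like Il1b above, was higher in the strain in which the called macrophage, dendritic cell and basophil markers were higher, and their part in these values was not tested. Ifngr2, a receptor subunit for interferon-γ, rested on 7 to 20 reads per library (1.02, SE 0.34, adjusted p = 0.0328, same test), and its call was lost when S9, S10, S11, S13 or S14 was left out in turn, with adjusted p values from 0.0626 to 0.123. The receptor genes of type I interferon did not pass, with 0.10 for Ifnar1 (adjusted p = 0.0857) and -0.10 for Ifnar2 (adjusted p = 0.0818), and Ifnar1 turned to -0.04 with plain library sizes while Ifnar2 turned to 0.00 with transcripts of the same version alone. Ifnar2 passed with plain library sizes (-0.24, adjusted p = 0.0013), with upper-quartile factors (-0.12, adjusted p = 0.0405) and by limma on log2 TPM (-0.22 and -0.23, adjusted p = 0.0104 and 0.0174). Of the factors that bind the ISRE or related sites, Irf7 was at 0.17 and did not pass (adjusted p = 0.35), and Irf1, named after its values were seen, was higher in C57BL/6 (0.76, SE 0.09, adjusted p = 9.72e-05). Stat2 was lower in C57BL/6 (-0.34, adjusted p = 0.0084) and Irf9 higher (0.21, adjusted p = 0.00332), both by less than 2-fold in edgeR's quasi-likelihood test. Irf9 did not pass with plain library sizes (0.07, adjusted p = 0.238) or by limma on log2 TPM (0.04 with either pseudocount, adjusted p = 0.522 and 0.535).

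Most of the interferon-stimulated genes tested outside the cluster were at higher levels in C57BL/6. Of 29 listed genes in the data, 19 were tested, 6 were called higher in C57BL/6 and 1 in BALB/c, with a median of 0.62. The adjusted p without the fold limit was passed by 17 in the direction of C57BL/6 and by 2 in that of BALB/c, against 27.0% and 25.9% of all genes tested. The macrophage, dendritic cell and basophil markers called above were higher in the same strain, and their part in these values was not tested. Rsad2, which encodes the antiviral enzyme viperin, had 12, 9 and 13 reads in BALB/c and 95, 110 and 116 in C57BL/6 (3.31, SE 0.22, adjusted p = 2.75e-06, edgeR's quasi-likelihood test). Its neighbour Cmpk2, a nucleotide kinase, had 2, 5 and 2 reads against 31, 11 and 21 (2.81, SE 0.53, adjusted p = 0.00181, same test). The size of this difference varied, from 0.28 by limma on log2(TPM + 1) to 3.44 without S10 and 7.42 with transcripts of the same version or curated ones. Oas3, a sensor that makes oligoadenylates, and Ifih1, the RNA sensor MDA5, were called as well (1.601 and 1.58, adjusted p = 0.00143 and 0.000309, same test). The call of Oas3 was lost with curated transcripts (2.25, adjusted p = 0.0668), and by limma on log2 TPM it stayed under 2-fold (0.15 and 0.74). By limma on log2(TPM + 1), Rsad2, Cmpk2, Ifih1 and Ifit2 also stayed under 2-fold. Ifit2, an RNA-binding inhibitor of translation, was the gene called higher in BALB/c, with 100, 86 and 100 reads against 31, 30.9 and 60 (-1.17, SE 0.22, adjusted p = 0.00171, same test). Of the called genes of this list, Gbp2, an interferon-induced GTPase, had the highest mean in C57BL/6, at 14.2 CPM, and the others were at or below 3.44 CPM there.

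No tested neighbour of the cluster differed by as much as Ifi203 or Ifi204. Of 17 neighbours, 10 were tested, 1 was called higher in C57BL/6 and 0 in BALB/c, and the median was 0.26. Fcer1a, the α chain of the mast cell IgE receptor and the neighbour with the highest TPM, had 5550 ± 103 TPM in BALB/c and 5374 ± 124 TPM in C57BL/6 (SD, n = 3 each). Its log2 fold change on counts was 0.13 (SE 0.04, adjusted p = 0.0127, edgeR's quasi-likelihood test) and turned to -0.01 with plain library sizes. Slamf1, a receptor of lymphoid and myeloid cells that is named after its values were seen, did not pass the filter on low counts, with 11.04, 11 and 10 reads in BALB/c against 0, 1 and 0 in C57BL/6. Fitted without the filter, it was higher in BALB/c (-4.50, SE 0.90, adjusted p = 0.000716, edgeR's quasi-likelihood test). Ackr1, a decoy receptor for chemokines, was called higher in C57BL/6 (1.46, SE 0.11, adjusted p = 6.04e-06, edgeR's quasi-likelihood test), with 225, 256 and 313 reads against 805, 542 and 741.

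**Figure D4:**
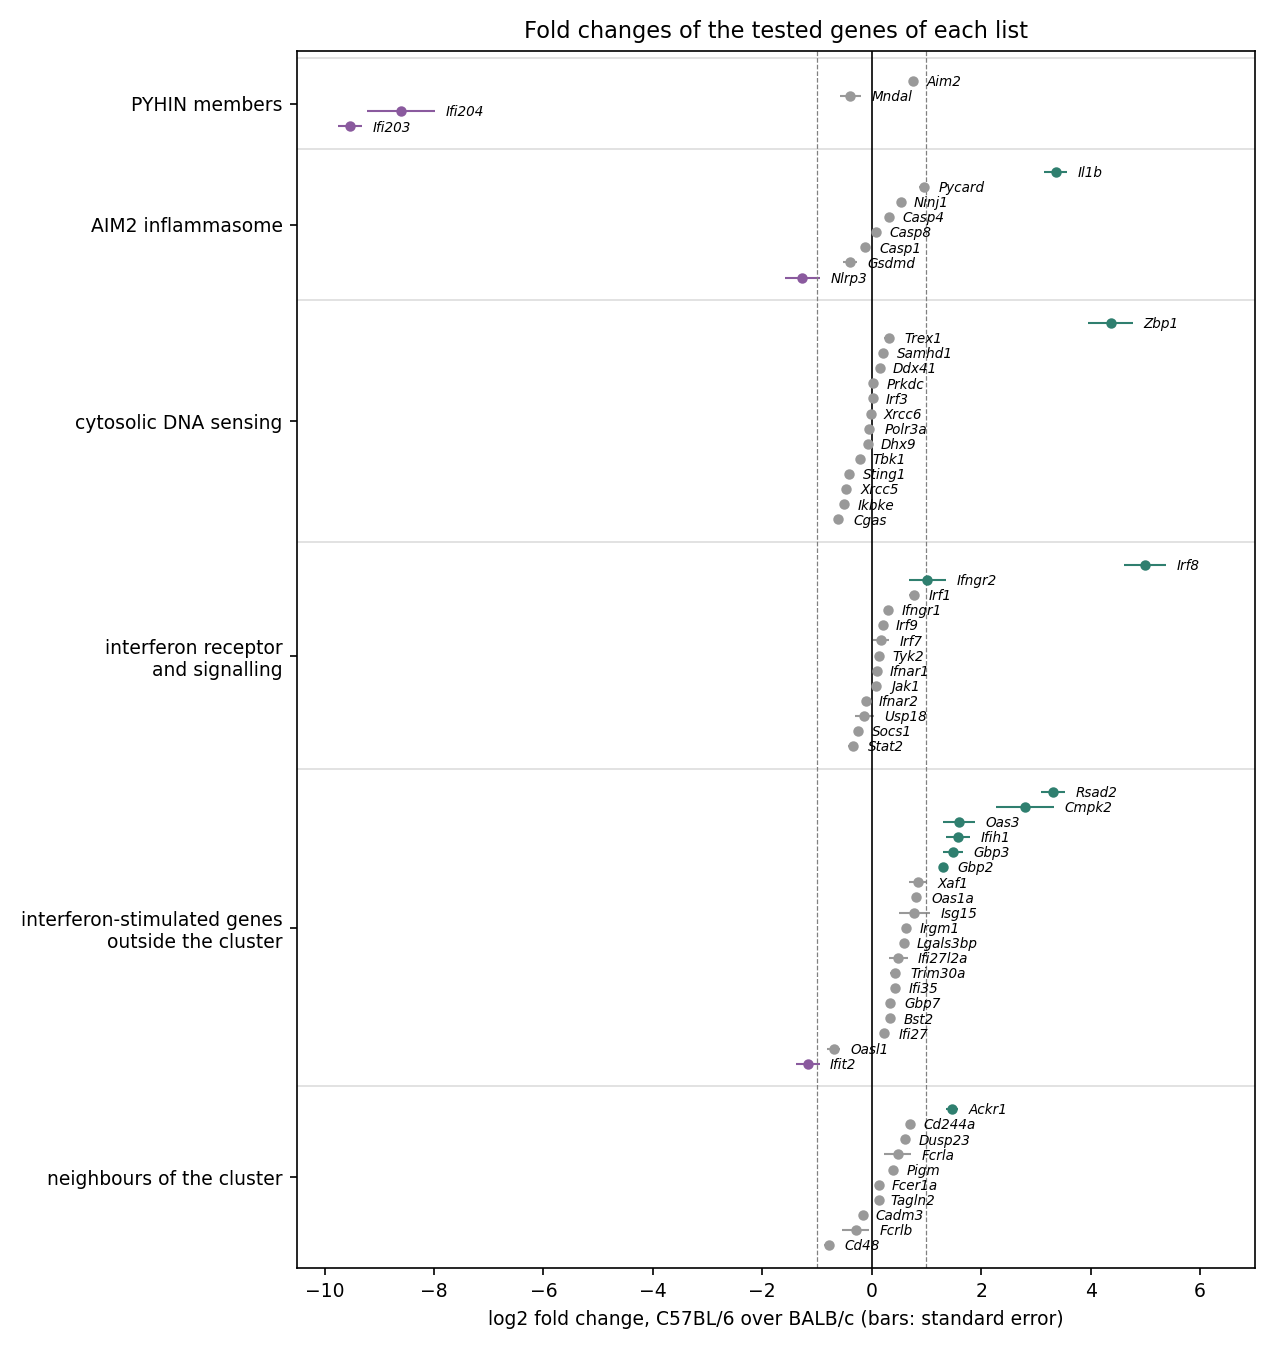
Log2 fold changes of C57BL/6 over BALB/c with standard errors (horizontal axis) for the tested genes of the family, of 4 pathway lists and of the neighbours on chromosome 1. Purple marks genes called higher in BALB/c, green those called higher in C57BL/6 and grey the rest, dashed lines mark 2-fold, and Ifi203 and Ifi204 lie at -9.53 and -8.60, the latter a fitted value that depends on the prior count.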

How the data were processed

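RNA of day 20 BMMCs was sequenced by the authors (stranded mRNA libraries, paired reads) and assigned to transcripts with Salmon 0.8.2 after FastQC 0.11.5. The authors deposited, per transcript and library, the estimated count, which need not be whole, the TPM value and the effective length in bases. The paper names Ensembl transcripts of GRCm39, while the deposited files list RefSeq accessions. Whether Salmon used strand is not given in the sources used here.

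Of 129698 transcripts, 106440 (82.1%) were paired with a gene through a RefSeq table (GRCm38.p6, names only), and the other 23258, with 2.69% to 3.12% of reads, were not analysed here. For members, the table lists more accessions than the files hold, 10 of 14 for Ifi203, 15 of 26 for Aim2 and 2 of 10 for Mndal. Estimated counts were summed by gene, rounded and tested with edgeR 4.0.16 (R 4.3.3, TMM, minimum count 10, quasi-likelihood test, Benjamini-Hochberg). The biological coefficient of variation was 0.0665. On simulated counts, 199 of 200 genes changed 4-fold were recovered, with 2 false calls. Intervals and floors cover counting error only. The study calls the 3 cultures per strain biological replicates. Alternatives were DESeq2 1.42.0, limma 3.58.1 on log2 TPM with 1 or 0.1 added, other scalings and filters, a length offset, other sets of transcripts, and each library left out. Named genes are all members, the called genes of each list (at most 4 in each direction by fold), 12 set genes and the 5 closest in pattern. Irf1, Slamf1, Gbp2, Casp4, Casp8, Gsdmd, Ninj1 and the markers named were added after their values were seen. Members and lists were chosen with earlier results of these data known, and some genes that the rule or the lists cover are not reported here.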

Additional observations from a re-analysis of the deposited data

How the results depend on the processing

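Ifi203 stayed called higher in BALB/c in every alternative fitted to its own reads (-10.49 to -3.299, the latter by limma on log2(TPM + 1)), and Aim2 stayed higher in C57BL/6 and under 2-fold in all 17 (0.54 to 0.80). Ifi204 stayed called in 16 of 17 and was at -0.997, with an adjusted p of 2.42e-05, by limma on log2(TPM + 1), a scale that compresses low genes. Mndal, not called, reached an adjusted p of 0.0397 with plain library sizes, and summed with Ifi203 (chosen after seeing the data) it was at -3.03. The members' sum turned to 0.54 without Ifi203, also chosen after seeing the data. The median over all genes tested shifted by -0.14 under plain library sizes and by -0.17 and -0.18 under limma on TPM.

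The number of members called higher in C57BL/6 went from 0 to 1 by the adjusted p alone, and in BALB/c from 2 to 0 with 10 reads required in every library, which removes Ifi203 and Ifi204 by construction, and to 1 by limma on log2(TPM + 1). By the adjusted p alone the lists gave (higher in C57BL/6, then BALB/c) 4 and 2 for the AIM2 inflammasome, 4 and 5 for DNA sensing, 6 and 2 for interferon signalling, 17 and 2 for interferon-stimulated genes and 6 and 2 for neighbours. With 10 reads in every library, 0 DNA sensing, 0 interferon signalling and 3 interferon-stimulated genes were higher in C57BL/6. Limma on log2(TPM + 1) called 0 interferon-stimulated genes in either direction. Transcripts of the same version, or curated ones, gave 0 inflammasome genes higher in BALB/c. Interferon signalling gave 1 higher in C57BL/6 by DESeq2, upper-quartile factors, plain library sizes, no filter, both limma fits and curated transcripts, through Ifngr2. DESeq2 and no filter gave 1 neighbour higher in BALB/c, against 0. With each library left out, the ranges were 1 to 2 for inflammasome and interferon signalling genes higher in C57BL/6, 1 to 2 for interferon-stimulated genes higher in BALB/c and 0 to 1 for neighbours higher in BALB/c. Pycard passed 2-fold without S12 (1.04).

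Signs turned for genes near 0. Irf3 was at -0.12 with plain library sizes, -0.13 and -0.14 by limma, -0.0232 to 0.0536 with each library left out (lowest without S9), and -0.32 with transcripts of the same version and with curated ones (-0.3204 and -0.3185). Ifnar1 was at -0.0437 with plain library sizes and -0.07 by both limma fits (-0.0675 and -0.0748). With transcripts of the same version or curated ones, Ifnar2 was at 0.0012 and 0.0034. Fcer1a was at -0.0129 with plain library sizes, -0.0466 by both limma fits and -0.0037 with curated transcripts. The cause was not tested. No paired analysis was possible because the strains share no replicate number. With 3 libraries per strain, members below about 10 reads did not pass the filter on low counts. Fitted without it, none of those with reads passed the test, and a difference could go unseen at this depth.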

Other observations

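Aim2 transcripts other than the leading one were uneven between libraries of a strain. The predicted transcript of 5230 bases (XM_006496926.3) had 41.5 reads in S9 and 104 in S12 and 0 in the other 4 libraries, and that of 5308 bases (XM_017321486.3) had 12.1 reads in S10 against 41.1, 4.80 and 6.68 in S12, S13 and S14. In contrast, the transcript of 3393 bases (XM_017321505.3) was separate between the strains, with 8.33, 11.6 and 7.20 reads in BALB/c against 27.4, 25.7 and 33.3 in C57BL/6. These were chosen after their values were seen, and were not tested.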
